A study of Saccharomyces cerevisiae with 4 samples.

Results

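The pentose phosphate pathway branches from glycolysis at glucose 6-phosphate. Its oxidative branch produces NADPH, which drives reductive biosynthesis and the thioredoxin and glutathione systems. Its nonoxidative branch exchanges carbon between sugar phosphates and gives ribose 5-phosphate and erythrose 4-phosphate. In budding yeast most steps are carried by a pair of paralogous genes, of which one is expressed in growing cells and the other is known as a gene of the general stress response. The genes described here were fixed by name, 9 of the 7126 features in the deposited table. They are ZWF1, the single glucose-6-phosphate dehydrogenase gene, and the pairs SOL3 and SOL4 (6-phosphogluconolactonase), GND1 and GND2 (6-phosphogluconate dehydrogenase), TKL1 and TKL2 (transketolase), and TAL1 and NQM1 (transaldolase). ZWF1, SOL3, GND1, TKL1 and TAL1 are called the housekeeping members below, 5 in all, and SOL4, GND2, TKL2 and NQM1 the stress paralogs, 4 in all.

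RNA was sequenced from Saccharomyces cerevisiae strain DPY438, whose genotype label is Hsf1-AA in all 4 samples. Anchor-away uses rapamycin to tether a tagged nuclear protein, here the heat shock transcription factor Hsf1, to a carrier that leaves the nucleus. Cultures were kept at 30 °C or shifted to 39 °C for 10 min, and at each temperature one culture was left without rapamycin and another received 1 µM of it for 45 min. Each group held 1 library of 1561620, 3231228, 2026880 and 2254007 assigned reads in the order 30 °C, 30 °C with rapamycin, 39 °C and 39 °C with rapamycin, which is the order of values used throughout. There is therefore no replicate check, the ratios were not tested, and differences between cultures cannot be told apart from those between conditions. No untagged strain was among the samples, and the labels do not say whether its TORC1 was resistant to rapamycin. In RNA from whole cultures, a difference in every cell and one in a fraction of cells cannot be told apart. Values are normalised reads, the authors' read counts divided by 1 size factor per library. A range in parentheses is a 95% interval for counting error, given the reads. A difference of at least 2-fold is a rule of size, not a test, and it was applied to the 5642 features with a mean of at least 5 normalised reads, which included all 9 genes.

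The gene of the anchored factor, HSF1, stood at 157, 107, 288 and 225 normalised reads. Anchor-away acts on the protein, so these mRNA values do not show whether Hsf1 was withdrawn. SSA4, a heat-inducible Hsp70 gene that depends on Hsf1, stood at 169, 525, 42107 and 402, so that its heat shock value was high in the library without rapamycin and near its 30 °C value in the library with it.

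In the heat shock comparison without rapamycin the 2 kinds of gene did not overlap. All 4 stress paralogs were at least 2-fold higher at 39 °C, against 19.8% of all kept features, with log2 ratios from 4.22 to 6.05 and a median of 5.05. None of the 5 housekeeping members was at least 2-fold higher and 1 was at least 2-fold lower, against 19.3% of all kept features, with a median of 0.18. The median over all kept features was 0.02.

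SOL4 hydrolyses 6-phosphogluconolactone, as SOL3 does. It is a plus-strand gene of 1 exon on chromosome VII (985972 to 986739 in assembly R64, YGR248W). It stood at 21.45 and 24.9 normalised reads in the 30 °C libraries and at 928 and 849 in the 39 °C libraries. Both heat shock values lay far above both 30 °C values. Its fold was 41.4 without rapamycin (26.0 to 77.8) and 32.9 with it (23.5 to 51.7).

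GND2 encodes the minor 6-phosphogluconate dehydrogenase (YGR256W, chromosome VII, 1004624 to 1006102, plus strand, 1 exon). It stood at 18.6 and 10.7 normalised reads at 30 °C, which are 13 and 12 reads, and at 516 and 459 at 39 °C. Again the 2 heat shock libraries were high and the other two low. The fold was 26.4 without rapamycin (16.0 to 52.6) and 39.5 with it (24.4 to 84.0).

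TKL2 encodes the minor transketolase (YBR117C, chromosome II, 474392 to 476437, minus strand, 1 exon). It stood at 12.9, 19.5, 919 and 650.4 normalised reads, resting on 9 reads at 30 °C without rapamycin. The library at 39 °C without rapamycin was the highest of the 4. Its fold of 66.3 (37.4 to 157) was rank 11 of the 5642 kept features, and with rapamycin it was 31.7 (21.8 to 53.5), rank 13. The table also lists YBR116C, the next number to TKL2, at 0, 2.67, 33.0 and 36.5 normalised reads. It matched no RefSeq gene, so an overlap with TKL2 was not checked.

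NQM1 encodes a transaldolase paralog of TAL1 (YGR043C, chromosome VII, 580435 to 581436, minus strand, 1 exon). It stood at 14.3 and 14.2 normalised reads at 30 °C and at 283 and 252 at 39 °C. NQM1 thus had the lowest heat shock value of the stress paralogs in both 39 °C libraries. Its fold was 18.6 without rapamycin (10.5 to 42.0) and 16.6 with it (10.7 to 31.4), the smallest of the stress paralogs in both arms.

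With 9 to 28 reads behind each 30 °C value, counting error limits the ranking of the stress paralogs among themselves. Of the 6 pairings of stress paralogs in heat shock without rapamycin, 2 had a difference of log2 ratios whose counting interval left out 0. TKL2 exceeded NQM1 by 1.84 (0.37 to 3.35), and GND2 lay 1.33 below TKL2, a difference of -1.33 (-2.78 to -0.01). With rapamycin 1 of 6 did so, GND2 exceeding NQM1 by 1.25 (0.08 to 2.52).

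**Figure D1:**
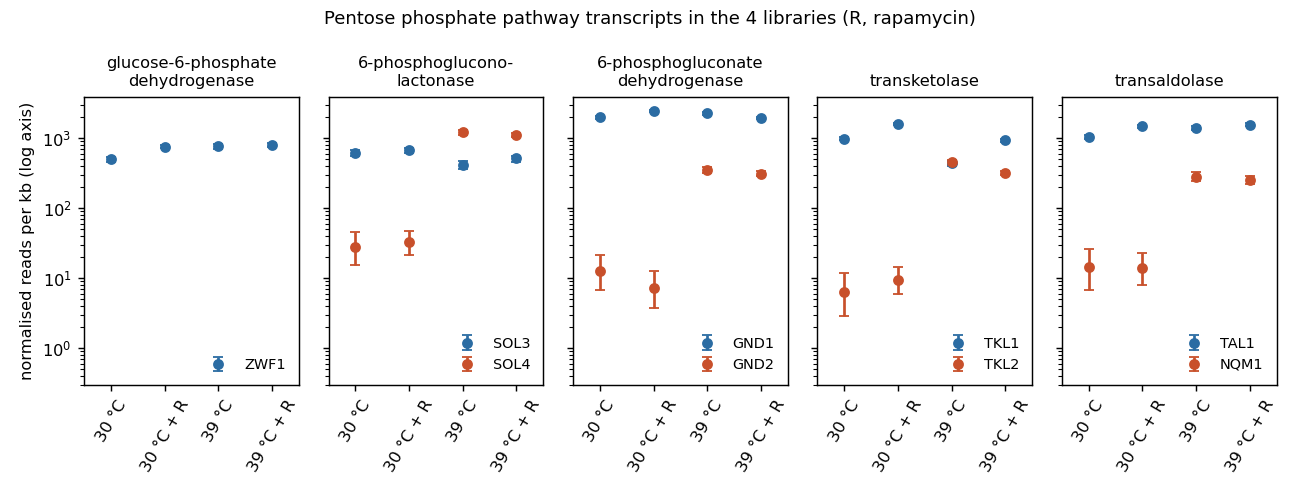
Normalised reads per kb of coding sequence (log axis) of the 9 genes in the 4 libraries, 1 panel per enzyme, with housekeeping members in blue and stress paralogs in orange; bars are 95% Poisson intervals of the reads. The stress paralogs lie between 6.29 and 32.4 at 30 °C and between 251 and 1208 at 39 °C, and SOL4 lies above SOL3 in both 39 °C libraries.

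Among the housekeeping members, ZWF1 controls entry into the oxidative branch (YNL241C, chromosome XIV, 196426 to 197943, minus strand, 1 exon). It stood at 752, 1144, 1151 and 1208 normalised reads. The library at 30 °C without rapamycin was the lowest, and the others lay close together on the deposited scale. Heat shock ratios of ZWF1 were 1.53-fold without rapamycin (1.37 to 1.71) and 1.06-fold with it (0.976 to 1.14). When libraries were divided by their totals the log2 ratios were 0.17 and 0.48. Both stayed above 0, but the larger ratio was then the one with rapamycin.

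GND1, the main 6-phosphogluconate dehydrogenase gene (YHR183W, chromosome VIII, 470960 to 472429, plus strand, 1 exon), was the most abundant of the 9 in every library. It stood at 2924, 3620.1, 3318 and 2827 normalised reads. Its ratio was 1.13-fold higher without rapamycin (1.07 to 1.21) and 1.28-fold lower with it (1.22 to 1.34), and both directions turned when libraries were divided by their totals, to log2 ratios of -0.26 and 0.05.

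SOL3, the main lactonase gene (YHR163W, chromosome VIII, 423724 to 424473, plus strand, 1 exon), stood at 459, 501, 312 and 383 normalised reads. Both heat shock values lay below both 30 °C values. The heat shock value was 1.47-fold lower without rapamycin (1.23 to 1.76) and 1.31-fold lower with it (1.15 to 1.49); on library totals the log2 ratios were -1.0 and 0.02, so the second direction depends on the scaling.

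TKL1, the main transketolase gene (YPR074C, chromosome XVI, 692796 to 694838, minus strand, 1 exon), was the only one of the 9 that was at least 2-fold lower in any of the 4 comparisons on the deposited scale. On library totals GND2 was so too, with rapamycin at 30 °C (-1.09). TKL1 stood at 2002, 3242, 891 and 1902 normalised reads. The library at 39 °C without rapamycin was the lowest and that at 30 °C with rapamycin the highest. At 39 °C TKL1 was 2.25-fold lower without rapamycin (2.04 to 2.48) and 1.70-fold lower with it (1.61 to 1.80), and it was lower in both arms under every scaling tried.

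TAL1, the main transaldolase gene (YLR354C, chromosome XII, 836350 to 837357, minus strand, 1 exon), stood at 1052, 1478, 1391 and 1553 normalised reads, lowest at 30 °C without rapamycin. Its heat shock ratio was 1.32-fold without rapamycin (1.20 to 1.46) and 1.05-fold with it (0.98 to 1.13). On library totals the log2 ratios were -0.04 and 0.48.

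Heat shock with rapamycin gave the same split by size. All 4 stress paralogs were at least 2-fold higher, against 18.3% of all kept features, with log2 ratios from 4.05 to 5.30 and a median of 5.01. No housekeeping member passed 2-fold in either direction, where 14.6% of all kept features were at least 2-fold lower, and their median was -0.36. The 2 heat shock ratios of a gene share no library. Their difference in log2, taken as the rapamycin arm minus the other arm, was -0.33 for SOL4 (-1.36 to 0.63), 0.58 for GND2 (-0.63 to 1.91), -1.06 for TKL2 (-2.42 to 0.09) and -0.16 for NQM1 (-1.50 to 1.10). TKL2 was thus the only one of the 9 whose difference reached 2-fold, against 8.29% of all kept features that did so in that direction and 9.25% in the other, and its counting interval included 0. On library totals those of SOL4 and NQM1 turned to 0.50 and 0.66, and those of GND2 and TKL2 were 1.41 and -0.24, so that GND2 and not TKL2 passed 2-fold. For the housekeeping members the difference was -0.54 for ZWF1 (-0.74 to -0.34), -0.54 for GND1 (-0.65 to -0.43), -0.33 for TAL1 (-0.51 to -0.16), 0.40 for TKL1 (0.24 to 0.56) and 0.17 for SOL3 (-0.15 to 0.49). On library totals those of ZWF1, GND1 and TAL1 turned to 0.31, 0.31 and 0.52, and those of TKL1 and SOL3 were 1.25 and 1.02. Library totals moved the median heat shock ratio of all kept features by -0.44 without rapamycin and by 0.40 with it. Such a rescaling shifts the differences of all genes alike, apart from the pseudocount. The SSA4 ratio, for comparison, went from a log2 of 7.95 to -0.39.

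**Figure D2:**
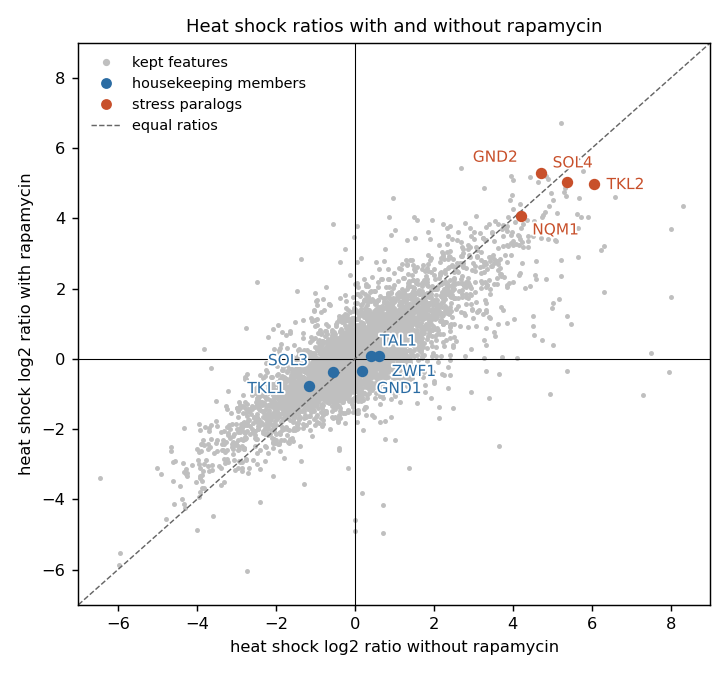
Heat shock log2 ratio with rapamycin (vertical) against that without (horizontal) for the 5642 kept features in grey, the housekeeping members in blue and the stress paralogs in orange; the dashed line marks equal ratios. The stress paralogs lie at 4.05 or more on both axes and the housekeeping members between -1.17 and 0.61.

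At 30 °C with rapamycin none of the 9 genes passed 2-fold on the deposited scale, where 4.7% of all kept features stood that much higher and 4.02% that much lower. On library totals GND2 did, at -1.09. All 5 housekeeping members had ratios above 0 with a median of 0.49, against 0.01 over all kept features. The ratio was 1.62-fold for TKL1 (1.52 to 1.72), 1.52-fold for ZWF1 (1.37 to 1.69), 1.40-fold for TAL1 (1.29 to 1.53), 1.24-fold for GND1 (1.17 to 1.31) and 1.09-fold for SOL3 (0.95 to 1.26). On library totals SOL3 and GND1 turned to -0.24 and -0.05, while TKL1, ZWF1 and TAL1 stayed above 0. For the stress paralogs every counting interval of the rapamycin ratio at 30 °C included 1. That of TKL2 ran from 0.672 to 3.75, so differences of this size were not detectable at this depth.

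Rapamycin in heat shock left 1 of the 9 at least 2-fold higher, against 4.56% of all kept features, and none at least 2-fold lower, against 2.46%. The 1 gene was TKL1, 2.13-fold higher at 39 °C with rapamycin than without (1.95 to 2.35), rank 206 of the kept features. Its stress paralog TKL2 was 1.41-fold lower in the same comparison (1.26 to 1.58). SOL4, GND2 and NQM1 were 1.09-fold, 1.12-fold and 1.13-fold lower, each with a counting interval that included 1. On library totals the log2 ratios of SOL4, GND2 and NQM1 were 0.36, 0.32 and 0.32, so a direction for these 3 genes depends on the scaling. That of TKL2 was -0.01 on library totals, so its lower value depends on the scaling too. The comparisons of heat and of rapamycin share libraries and are not independent of each other.

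Because both genes of a pair were counted in the same library, the difference between their log2 ratios does not depend on how libraries are scaled, apart from the pseudocount of 1. In heat shock without rapamycin the stress paralog exceeded its partner by 7.22 for TKL2 and TKL1 (6.38 to 8.47), 5.93 for SOL4 and SOL3 (5.2 to 6.88), 4.54 for GND2 and GND1 (3.81 to 5.54) and 3.81 for NQM1 and TAL1 (2.98 to 5.0). With rapamycin the differences were 5.76 (5.21 to 6.51), 5.42 (4.90 to 6.11), 5.66 (4.96 to 6.75) and 3.98 (3.34 to 4.91) in the same order. The NQM1 and TAL1 pair thus had the smallest difference in both arms. Rapamycin in heat shock shifted the TKL2 and TKL1 pair by -1.59 (-1.80 to -1.38), the widest shift of the 4 pairs. The pairs SOL4 and SOL3, at -0.42 (-0.72 to -0.14), and NQM1 and TAL1, at -0.33 (-0.63 to -0.03), shifted the same way, and the value of GND2 and GND1 was 0.06 (-0.16 to 0.28).

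Levels of different genes were compared per kb of coding sequence. At 30 °C without rapamycin the order was GND1 (1989 normalised reads per kb), TAL1 (1044), TKL1 (980), SOL3 (612), ZWF1 (495), SOL4 (27.9), NQM1 (14.3), GND2 (12.6) and TKL2 (6.29). All 5 housekeeping members stood above all 4 stress paralogs, and TAL1 and TKL1 overlapped in their counting intervals, as did each neighbouring pair of stress paralogs. At 39 °C without rapamycin the order was GND1 (2257), TAL1 (1380), SOL4 (1208), ZWF1 (759), TKL2 (449), TKL1 (436), SOL3 (416), GND2 (349) and NQM1 (283). The groups were now interleaved, and the intervals of TAL1 and SOL4 overlapped, as did those of each neighbouring pair from TKL2 down to NQM1.

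The stress paralog's share of its pair, per kb, was small at 30 °C and differed widely between pairs at 39 °C. SOL4 took 4.36% of its pair at 30 °C without rapamycin (exact binomial interval 2.46% to 7.10%) and 74.4% at 39 °C (71.3% to 77.4%). TKL2 went from 0.638% (0.292% to 1.21%) to 50.8% (47.9% to 53.6%). NQM1 went from 1.35% (0.648% to 2.47%) to 17.0% (14.8% to 19.3%) and GND2 from 0.628% (0.335% to 1.07%) to 13.4% (12.1% to 14.8%). SOL4 was thus the larger transcript of its pair in heat shock, TKL2 about level with TKL1, and NQM1 and GND2 the smaller ones. With rapamycin the 39 °C shares were 68.4% for SOL4 (65.8% to 70.9%), 25.5% for TKL2 (23.8% to 27.2%), 14% for NQM1 (12.5% to 15.7%) and 13.9% for GND2 (12.8% to 15.1%). The TKL2 share was the one that differed most between the 39 °C libraries. TKL1 was higher with rapamycin there. TKL2 was lower on the deposited scale and about level on library totals, at a log2 ratio of -0.01.

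**Figure D3:**
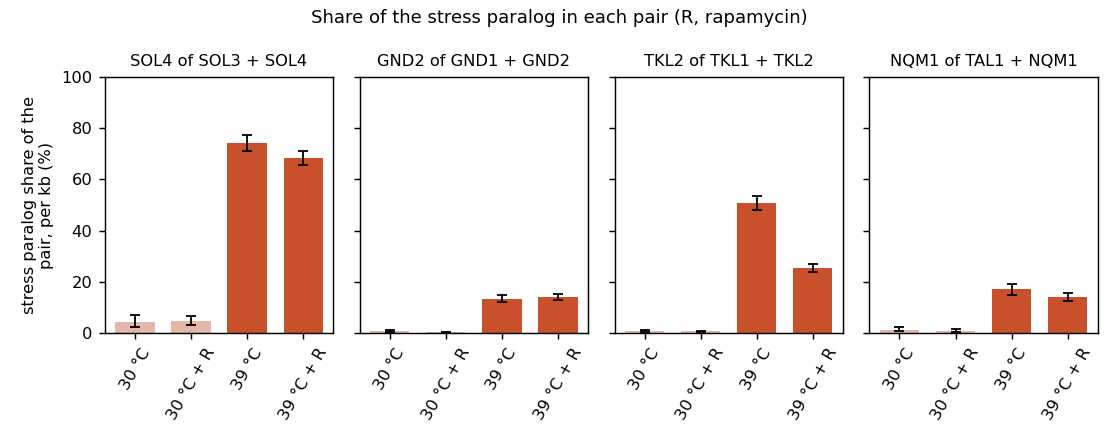
Share of each pair taken by the stress paralog, per kb of coding sequence, in the 4 libraries; bars start at 0, pale bars are 30 °C and dark bars 39 °C, and error bars are exact 95% binomial intervals of the reads. SOL4 stands at 74.4% and 68.4% at 39 °C, TKL2 at 50.8% and 25.5%, and GND2 and NQM1 between 13.4% and 17.0%.

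Summed over both genes, the transcripts of a step differed much less than the stress paralogs did. The summed normalised reads of the lactonase pair were 2.58-fold higher at 39 °C without rapamycin (2.27 to 2.94), the transaldolase pair 1.57-fold (1.43 to 1.72) and the phosphogluconate dehydrogenase pair 1.30-fold (1.23 to 1.38). The transketolase pair was 1.11-fold lower (1.03 to 1.20). With rapamycin the lactonase pair was 2.34-fold higher (2.12 to 2.59) and the transaldolase pair 1.21-fold (1.13 to 1.29), while the phosphogluconate dehydrogenase pair was 1.10-fold lower (1.06 to 1.16) and the transketolase pair 1.28-fold lower (1.22 to 1.34). On the deposited scale the lactonase pair passed 2-fold in both arms and the other three pairs in neither. These sums depend on the scaling. On library totals the lactonase pair was 1.90-fold higher without rapamycin, short of 2-fold, and 3.11-fold with it, and the transaldolase pair 1.15-fold and 1.60-fold. The phosphogluconate dehydrogenase pair turned in both arms, to 1.04-fold lower and 1.20-fold higher, and the transketolase pair was 1.52-fold lower without rapamycin and turned to 1.04-fold higher with it. The 9 genes together took 0.325%, 0.350%, 0.320% and 0.466% of all assigned reads, and the 4 stress paralogs 0.00301%, 0.00241%, 0.0871% and 0.102%. In normalised reads the 9 genes summed to 7256, 10055, 9709 and 10083, so a direction of their total depends on the scaling. Protein-coding genes took 64.7%, 59.5%, 59.6% and 66.5% of the assigned reads.

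The coding sequences of the paralogs were compared, since similar ones could share reads. Read length and alignment settings are not given, so the separation of reads itself was not checked. Aligned coding sequences were 79.1% identical for GND1 and GND2, 69.4% for TKL1 and TKL2, 68.5% for TAL1 and NQM1 and 58.5% for SOL3 and SOL4. The longest identical run was 20 bases, in the GND pair, and no stretch of 50 bases was shared in any pair. None of the 9 genes overlapped another gene of the RefSeq annotation. Of the 7126 counted features 6079 matched RefSeq, so overlaps with the others, YBR116C among them, were not checked.

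Upstream sequences were read from the R64 genome between 300 and 51 bases before the start codon, 250 bases per gene. They were searched on both strands for the stress response element core CCCCT, bound by Msn2 and Msn4, for the Stb5-type motifs CGGNGTTA and CGGNGATA, for the heat shock element pairs TTCNNGAA and GAANNTTC, bound by Hsf1 in longer arrays, and for the Yap1-type motif TTACTAA. Stb5 is an activator of NADPH-producing genes in oxidative stress. The 4 stress paralogs are shown because they were high together at 39 °C, and ZWF1, GND1 and TKL1 for contrast. Capitals mark CCCCT or its complement AGGGG and the Stb5-type matches. Each sequence is written on the strand of its gene, 5′ to 3′, and ends 51 bases before the start codon. The windows are chrVII:985672-985921 on the plus strand for SOL4, chrVII:1004324-1004573 (plus) for GND2, chrII:476488-476737 (minus) for TKL2, chrVII:581487-581736 (minus) for NQM1, chrXIV:197994-198243 (minus) for ZWF1, chrVIII:470660-470909 (plus) for GND1 and chrXVI:694889-695138 (minus) for TKL1.
SOL4: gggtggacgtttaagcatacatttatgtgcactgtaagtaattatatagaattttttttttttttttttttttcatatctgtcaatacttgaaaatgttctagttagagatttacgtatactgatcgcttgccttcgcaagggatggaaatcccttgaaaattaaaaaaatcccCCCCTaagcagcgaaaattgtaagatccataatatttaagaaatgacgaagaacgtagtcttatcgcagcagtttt
GND2: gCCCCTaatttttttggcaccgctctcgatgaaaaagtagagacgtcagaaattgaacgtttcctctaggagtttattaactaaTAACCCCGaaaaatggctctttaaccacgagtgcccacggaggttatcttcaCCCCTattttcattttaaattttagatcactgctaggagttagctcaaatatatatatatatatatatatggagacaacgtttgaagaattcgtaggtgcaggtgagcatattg
TKL2: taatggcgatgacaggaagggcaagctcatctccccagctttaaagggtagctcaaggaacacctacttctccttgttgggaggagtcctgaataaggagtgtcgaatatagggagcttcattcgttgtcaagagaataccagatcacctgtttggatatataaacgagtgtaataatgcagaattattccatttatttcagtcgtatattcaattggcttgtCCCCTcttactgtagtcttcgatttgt
NQM1: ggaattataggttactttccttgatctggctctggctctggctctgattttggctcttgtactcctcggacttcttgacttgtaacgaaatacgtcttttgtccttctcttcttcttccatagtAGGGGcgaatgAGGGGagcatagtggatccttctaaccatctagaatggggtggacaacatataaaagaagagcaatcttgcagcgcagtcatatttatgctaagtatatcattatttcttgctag
ZWF1: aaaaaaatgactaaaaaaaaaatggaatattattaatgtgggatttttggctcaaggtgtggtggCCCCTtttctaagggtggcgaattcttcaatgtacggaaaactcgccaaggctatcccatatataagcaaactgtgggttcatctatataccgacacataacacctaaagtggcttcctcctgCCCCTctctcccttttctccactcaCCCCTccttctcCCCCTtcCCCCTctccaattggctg
GND1: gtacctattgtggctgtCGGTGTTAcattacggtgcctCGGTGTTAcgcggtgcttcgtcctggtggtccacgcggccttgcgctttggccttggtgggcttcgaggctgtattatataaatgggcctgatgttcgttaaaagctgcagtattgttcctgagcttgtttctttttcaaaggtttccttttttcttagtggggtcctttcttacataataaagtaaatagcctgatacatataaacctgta
TKL1: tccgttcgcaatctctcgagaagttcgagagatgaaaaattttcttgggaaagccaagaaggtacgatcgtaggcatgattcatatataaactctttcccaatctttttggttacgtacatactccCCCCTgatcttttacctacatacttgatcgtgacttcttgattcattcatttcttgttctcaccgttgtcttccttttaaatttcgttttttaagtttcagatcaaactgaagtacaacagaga

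CCCCT was present in the window of all 4 stress paralogs and of 3 of the 5 housekeeping members, against 19.2% of 6001 protein-coding genes. SOL4 had 1 match, 126 bases before the start codon, and TKL2 had 1, at 77 bases. GND2 had 2, at 299 and 164 bases, and NQM1 had 2 on the opposite strand, at 176 and 165 bases, where 2.83% of all windows held 2 or more. ZWF1 had 5 matches, 4 of them within the last 112 bases, and 0.0667% of all windows held 4 or more. The heat shock fold of ZWF1 was 1.53, below those of the stress paralogs, and TKL1, with 1 match at 174 bases, was lower in heat shock. Over all kept protein-coding genes, 40.3% of the 1075 with a match were at least 2-fold higher in heat shock without rapamycin and 14% of the 4356 without one. A match is a run of letters and was not tested as a binding site, and a part of it in the heat shock ratios was not tested.

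A Stb5-type motif was present in 2 of the 5 housekeeping members and 1 of the 4 stress paralogs, against 4.35% of all windows. GND1 had 2 matches of CGGNGTTA, at 283 and 262 bases, SOL3 had 1 match of each form, at 155 and 105 bases, and GND2 had 1 at 216 bases. No window of the 9 held TTCNNGAA, GAANNTTC or TTACTAA, which were present in 11.3%, 10.3% and 6.28% of all windows. The short form CGGNTA was present in SOL3 alone among the 9, against 24.4% of all windows. TATAAA was present in 2 of the 4 stress paralogs, TKL2 and NQM1, and in 3 of the 5 housekeeping members, against 43.1%.

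**Figure D4:**
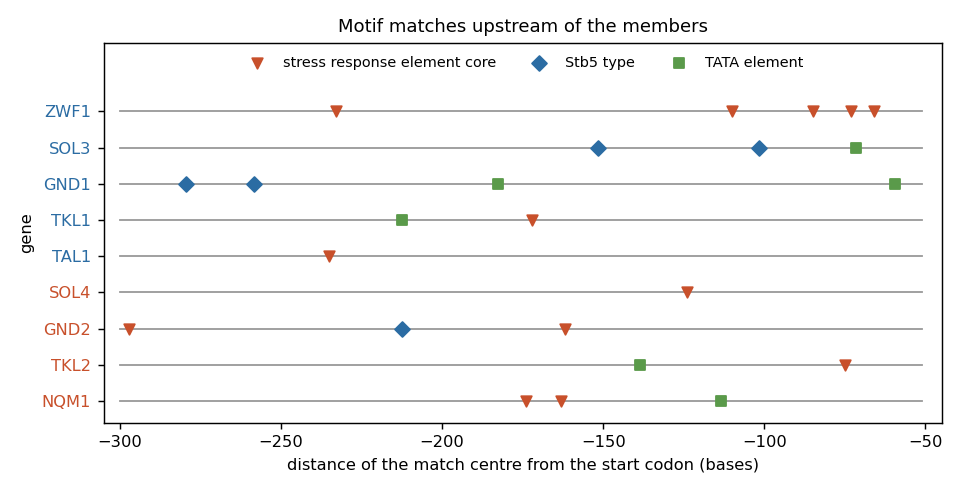
Matches of CCCCT (triangles), the Stb5-type motifs (diamonds) and TATAAA (squares) between 300 and 51 bases before the start codon of the 9 genes, on either strand. CCCCT lies in all 4 stress paralogs and in ZWF1, TKL1 and TAL1, and Stb5-type matches lie in SOL3, GND1 and GND2.

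The genes whose 4 values were most like those of a stress paralog were found by the distance between log2(value + 1) profiles with their means removed, among 5085 protein-coding genes with a mean of at least 20, the 9 members left aside. This measure rests on 4 libraries. For SOL4 they were EGO4 (distance 0.245), ALD3 (0.259), an aldehyde dehydrogenase gene, and PGM2 (0.355), the phosphoglucomutase gene of storage carbohydrate metabolism. For GND2 they were FMP45 (0.347), FMP33 (0.543) and ALD3 (0.584), and for TKL2 they were PHM7 (0.329), RGI1 (0.403) and YNL194C (0.483). For NQM1 they were AIM17 (0.239), SYM1 (0.249) and RTN2 (0.276). Among the stress paralogs SOL4 and TKL2 were the closest pair, at 0.483, and TKL2 and NQM1 the farthest apart, at 1.46.

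The 13 other genes of pentose and ribose phosphate metabolism stood on both sides of their 30 °C level. In heat shock without rapamycin 3 passed 2-fold upward and 7 downward, against 19.8% and 19.3% of all kept features, with a median log2 ratio of -1.01 against 0.02 over all kept features. The higher ones were SOL1 at 6.15-fold (4.14 to 9.93), a paralog of the lactonase genes, XKS1, the xylulokinase gene, at 5.22-fold (3.83 to 7.46) and PRM15, a phosphoribomutase gene, at 3.23-fold (2.66 to 3.97). The lower ones included RPE1, the ribulose-phosphate epimerase gene, at 3.75-fold (2.71 to 5.41), RKI1, the ribose-phosphate isomerase gene, at 2.99-fold (1.80 to 5.43), and SHB17, the sedoheptulose bisphosphatase gene, at 2.43-fold (1.90 to 3.16). The other 4 were genes of phosphoribosyl pyrophosphate synthetase, PRS1 at 6.91-fold (5.32 to 9.30), PRS4 at 3.55-fold, PRS3 at 3.34-fold and PRS5 at 2.01-fold. With rapamycin 3 passed it upward and 3 downward, against 18.3% and 14.6% of all kept features, with a median of -0.69. The upward counts in both arms and the downward count with rapamycin lay near those shares. At 39 °C 2 of the 13 were at least 2-fold higher with rapamycin than without, against 4.56% of all kept features. They were RPE1 at 2.15-fold (1.54 to 3.11) and PRS1 at 2.24-fold (1.68 to 3.05), and none was at least 2-fold lower, against 2.46%. TKL1 stood at 2.13-fold in that comparison. On library totals 6 of the 13 were at least 2-fold higher, where 92% of all features past 2-fold were higher.

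Among the 7 other NADPH and NADP genes, 2 were at least 2-fold higher in heat shock without rapamycin and 1 at least 2-fold lower, counts near the 19.8% and 19.3% of all kept features, with a median of 0.77 against 0.02. ALD6, the cytosolic acetaldehyde dehydrogenase gene and another source of NADPH, stood at 1781, 2960.1, 4307 and 3552 normalised reads. The heat shock ratio of ALD6 was 2.42-fold without rapamycin (2.26 to 2.59) and 1.20-fold with it (1.14 to 1.26), and on library totals 1.78-fold and 1.59-fold, under 2-fold in both arms. The NAD kinase gene YEF1 was 2.85-fold higher (1.87 to 4.59), and IDP1, a mitochondrial isocitrate dehydrogenase gene, was 2.48-fold lower (2.10 to 2.96). With rapamycin YEF1 alone of the 7 passed 2-fold on the deposited scale, at 2.19-fold higher (1.63 to 3.04), and on library totals UTR1, another NAD kinase gene, did so too at 2.18-fold.

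Of the 5 genes that make or isomerise glucose 6-phosphate, 3 were at least 2-fold higher in both heat shock comparisons, against 19.8% and 18.3% of all kept features, with medians of 2.82 without rapamycin and 2.06 with it. HXK1, a hexokinase gene, was 16.2-fold higher without rapamycin (14.7 to 17.8), the glucokinase gene GLK1 9.57-fold (8.66 to 10.6) and its paralog EMI2 7.08-fold (6.06 to 8.36). HXK2 and PGI1, the phosphoglucose isomerase gene, were 1.45-fold and 1.47-fold higher.

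**Figure D5:**
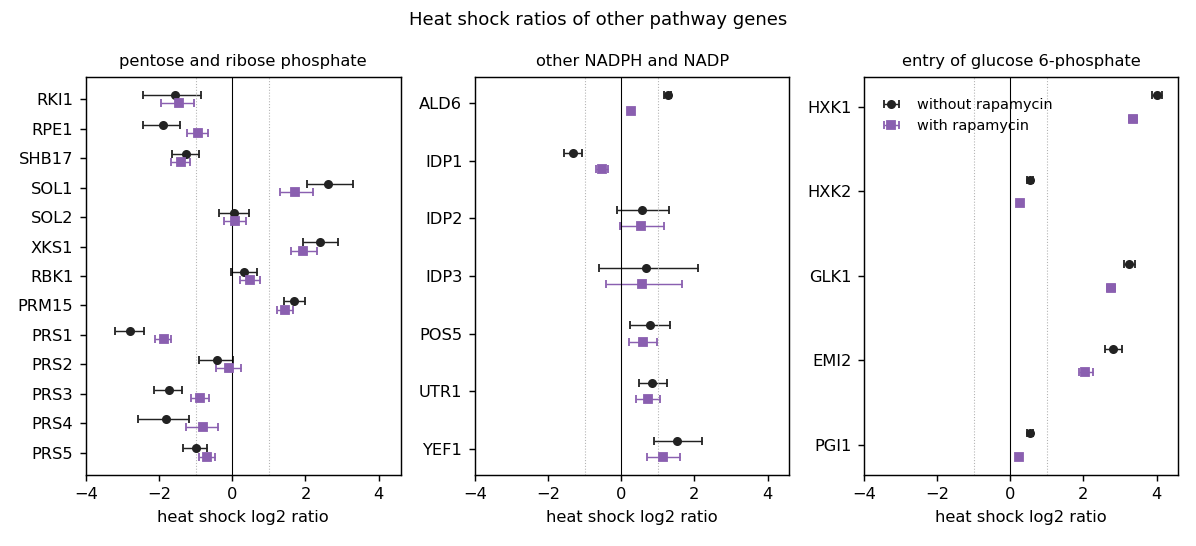
Heat shock log2 ratios without rapamycin (black circles) and with it (purple squares) for 13 genes of pentose and ribose phosphate metabolism, 7 NADPH and NADP genes and 5 genes around glucose 6-phosphate; bars are exact 95% counting intervals and dotted lines mark 2-fold. PRS1 is lowest at -2.79 and HXK1 highest at 4.01.

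Other pairs of carbohydrate metabolism genes were set beside the pentose phosphate pairs, the gene named first being called the stress form. In heat shock without rapamycin the stress form exceeded its partner by 5.01 on the log2 scale for PGM2 and PGM1 (4.62 to 5.41), 3.48 for HXK1 and HXK2 (3.31 to 3.65), 3.04 for PYK2 and CDC19 (2.63 to 3.5), 2.45 for TSL1 and TPS3 (2.19 to 2.71) and 1.05 for GPD1 and GPD2 (0.69 to 1.39). The TKL2 and TKL1 difference of 7.22 lay above all of these with its whole interval, whereas those of the SOL, GND and NQM1 pairs overlapped the interval of PGM2 and PGM1. With rapamycin the difference of PGM2 and PGM1 was 4.17 (3.87 to 4.47), and the intervals of the TKL, SOL and GND pairs all lay above it, while that of NQM1 and TAL1 overlapped it. Without rapamycin the summed PGM pair was 19.1-fold higher (17.0 to 21.5) and the TSL1 and TPS3 pair 17.5-fold (16.1 to 19.1). The summed GPD pair was 5.04-fold higher (4.52 to 5.62) and the HXK pair 4.70-fold (4.48 to 4.93). The summed PYK2 and CDC19 pair was 1.39-fold lower (1.35 to 1.43). The pentose phosphate pairs lay between 1.11-fold lower and 2.58-fold higher.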

How the data were processed

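The deposited table holds signal values that are, per the labels, RNA-seq of total RNA, extracted with phenol and chloroform, from TruSeq libraries. The submitters' processing notes name TopHat, HTSeq and sacCer3 and give no settings. The authors divided read counts by 1 size factor per library: 100% of the values came out as whole reads (tolerance 0.0055), with a step of 1.43, 0.888, 1.5 and 0.961 in the 4 libraries. Read length, strand and the making of the factors are not stated there.

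Ratios of libraries are differences of log2(value + 1). Intervals are exact Poisson for levels, exact conditional binomial for ratios and shares, and exact conditional odds ratios for differences of ratios, without the pseudocount (scipy 1.17.1). They describe counting error alone, since reads lack molecular identifiers and may be copies of one molecule. The members and gene lists were chosen with earlier results of these data known. Lists were genes of the pathway, of NADPH, of glucose 6-phosphate, 6 transcription factors and other pairs of carbohydrate metabolism genes. All 48 listed genes were in the table. The named genes were these and the 3 most alike to each stress paralog; SSA4, YBR116C and the genes between neighbouring members were added after their values were seen, as was the TATAAA motif. Names, positions and sequences come from the RefSeq annotation of R64, the assembly that sacCer3 names. The design foresaw a count test only as an alternative: edgeR 4.0.16 with additive heat and rapamycin terms and 1 residual degree of freedom, which compares these libraries and not the conditions. Other alternatives were library totals, median-of-ratios and TMM scaling (TMM, and any rescaling of pair sums and listed genes, chosen after seeing the data), pseudocounts of 0.25 and 5, filters at 1, at 20 and none, and protein-coding features alone. The code was tested on simulated data.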

Additional observations from a re-analysis of the deposited data

Results flagged for a closer look

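GND1 was the only one of the 9 genes with opposite directions in the 2 arms of a comparison and counting intervals off 1 in both. Its heat shock log2 ratio was 0.18 without rapamycin and -0.36 with it, and its rapamycin log2 ratio was 0.31 at 30 °C and -0.23 at 39 °C. Both come from the same 4 values, and the difference was not tested. On library totals the 4 ratios were -0.26, 0.05, -0.05 and 0.26, each of the opposite sign.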

How the results depend on the processing

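Under the 5 alternative scalings and pseudocounts the 4 stress paralogs stayed at least 2-fold higher in both heat shock comparisons, between 3.74 and 6.13 on the log2 scale. All 80 recomputed pair differences stayed within their counting intervals. Library scaling cancels in a pair difference apart from the pseudocount, so only the settings with another pseudocount could have moved these values. TKL1 stayed at least 2-fold lower in heat shock without rapamycin and at least 2-fold higher with rapamycin at 39 °C. Library totals moved the median of all kept features by -0.44 and 0.40 in heat shock without and with rapamycin, by -0.36 with rapamycin at 30 °C and by 0.48 at 39 °C; GND2 was then 1 gene at least 2-fold lower with rapamycin at 30 °C, at -1.09. On library totals 724 features were at least 2-fold higher and 1701 lower in heat shock without rapamycin, 1590 and 433 with it, 113 and 590 with rapamycin at 30 °C, and 874 and 76 with rapamycin at 39 °C. The higher features made up 29.9%, 78.6%, 16.1% and 92% of those past 2-fold, against 50.6%, 55.6%, 53.9% and 64.9% on the deposited scale. For rapamycin, features at least 2-fold lower numbered 149 at 30 °C with a pseudocount of 5, 348 at 30 °C and 220 at 39 °C with a filter at 1, and 408 and 293 without a filter, against 227 and 139. The edgeR quasi-likelihood test called 1140 features higher and 1090 lower for heat, including the 4 stress paralogs and no housekeeping member. For rapamycin it called 6 higher and 20 lower, with 369 at an unadjusted p under 0.05 and none of the 9 genes. Summed pairs moved past their counting intervals in 16 of the 48 recomputed values. No library can be left out with 1 per group. No paired analysis was possible because each group holds 1 library and the labels give no replicate numbers. Depth limits the 30 °C values of the stress paralogs, which rest on 9 to 28 reads.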

Other observations

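SOL4 and GND2 lie 17884 bases apart on chromosome VII, and SOL3 and GND1 lie 46486 bases apart on chromosome VIII. Of the 7 protein-coding genes between SOL4 and GND2, 4 were at least 2-fold higher in heat shock without rapamycin and 1 at least 2-fold lower, against 19.8% and 19.3% of all kept features, with a median log2 ratio of 1.61. With rapamycin 3 were higher and 1 lower, against 18.3% and 14.6%, with a median of 0.32. The 4 were RIE1, MGA1, the enolase gene ENO1 and COQ6, a gene of ubiquinone synthesis. RIE1 stood at 202, 227, 4637 and 526 normalised reads. Its heat shock log2 ratio was 4.52 without rapamycin and 1.21 with it, smaller but still past 2-fold. MGA1 stood at 25.7, 32.9, 267 and 355 and was high in both 39 °C libraries, as SOL4 and GND2 were. Of the 19 kept genes between SOL3 and GND1, 1 was at least 2-fold higher, the autophagy gene ATG7, and 5 were at least 2-fold lower, the latter near the share over all kept features, with a median of -0.64. With rapamycin 4 were higher and 3 lower, with a median of -0.12. STB5, the gene of the NADPH regulator, is one of these 19 and stood at 65.8, 65.7, 57.0 and 62.5.

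Of the 6 transcription factor genes listed, GIS1, a factor of the diauxic shift, was at least 2-fold higher in heat shock without rapamycin, and GIS1 and HSF1 with it, against 19.8% and 18.3% of all kept features. On library totals none of the 6 passed 2-fold without rapamycin, and GIS1, HSF1 and MSN2 did with it. MSN2 stood at 126, 118, 199 and 210.4 normalised reads, MSN4 at 194, 186, 180 and 271, and YAP1, an oxidative stress factor, at 197, 206, 348 and 250. GIS1 stood at 206, 81.7, 514 and 542, 2.5-fold lower with rapamycin at 30 °C (1.93 to 3.31).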
